A study of Mus musculus with 58 samples.

Results

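The genes of the gastric glands were followed in forestomach samples from mice that were dosed with benz(a)anthracene (BaA), one of the polycyclic aromatic hydrocarbons. The set held 10 genes chosen for the cell types they are known to mark, namely Pgc and Chia1 for chief cells, Atp4a and Atp4b for parietal cells, Muc6 and Tff2 for mucous neck cells, and Muc5ac, Gkn1, Gkn2 and Tff1 for surface mucous cells. Of these, 9 were found among the 20018 gene symbols matched to the array, through 11 probes, and Muc6 matched no probe and has no value here. The samples came from male Muta™Mouse animals of 10 weeks, which all carry a lacZ reporter transgene and all received olive oil by gavage for 28 days. In the vehicle group (D0) the oil was given alone, and in D1, D2 and D3 it carried 20, 40 and 80 mg BaA per kg of body weight per day. Forestomach, lung and liver were taken 72 h after the last dose, and RNA came from slices of the frozen organ. Forestomach had 4 mice in D0 and 5 in each BaA group (19 arrays), lung had 5 mice in every group (20 arrays), and liver had 5, 5, 5 and 4 (19 arrays). The mice were numbered 1 to 20, and one number stands for the same animal in every tissue.

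The mouse stomach has an upper compartment, the forestomach, lined by a keratinised squamous epithelium without glands, and a glandular compartment that begins at a sharp border, the limiting ridge. In the glandular wall, surface (pit) mucous cells line the lumen and the openings of the glands, mucous neck cells lie below them, parietal cells secrete acid through the proton pump, and chief cells at the base secrete digestive enzyme precursors. In the mouse, chief cells also produce an acidic chitinase. The forestomach samples were therefore examined for which of these cell types had left RNA in each mouse, with lung and liver as the background.

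Each value is a log2 ratio of the sample (Cy5) to a universal mouse reference RNA (Cy3) that was the same on every array. For a given probe, 1 unit is a doubling of that ratio. It is not always a doubling of the sample signal, since the Cy3 signal of some probes rose with Cy5, as given below. Ratios were compared between samples for the same gene only. A gene was called well above background on an array where the scanner software flagged a share of at least 0.5 of its spots so in Cy5. In forestomach 38.4 to 69.2% of spots passed that flag, in lung 44.4 to 55.2% and in liver 34.1 to 45.7%. The forestomach arrays lay on 3 slides, each holding all 4 dose groups, and slide 3 was dimmer than the others, with 38.4 to 42.1% of spots above background against 52.4 to 69.2% on slides 1 and 2. The reference channel did not share this difference, with 52.7 to 54.8% on slide 3 and 48.8 to 63.1% on the other two.

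The bases just upstream of 5 of the measured genes are given first. Their part in the values by cell type below was not tested. Pgc and Chia1 mark chief cells, Atp4a marks parietal cells, and Gkn1 and Gkn2, relatives on one chromosome, mark the surface. The RefSeq promoter table (GRCm38.p6) matched 6 of the 10 genes. Each sequence is the 250 bases before the annotated start, read 5′ to 3′ on the gene's strand, with capitals marking TATAAA (the TATA box) and the GATA words, which are AGATAA or the same with a final G, and TGATAA or the same with a final G, searched on both strands. GATA factors are known to act in the gastric epithelium. The positions are chr17:47726592-47726841, plus strand for Pgc, chr3:106113132-106113381, plus strand for Chia1, chr7:30711959-30712208, plus strand for Atp4a, chr6:87350916-87351165, minus strand for Gkn1 and chr6:87373115-87373364, plus strand for Gkn2.
Pgc: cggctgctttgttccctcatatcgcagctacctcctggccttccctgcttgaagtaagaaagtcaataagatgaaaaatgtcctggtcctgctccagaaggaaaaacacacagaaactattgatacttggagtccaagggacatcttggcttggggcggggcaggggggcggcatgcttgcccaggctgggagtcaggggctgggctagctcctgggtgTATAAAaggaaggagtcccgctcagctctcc
Chia1: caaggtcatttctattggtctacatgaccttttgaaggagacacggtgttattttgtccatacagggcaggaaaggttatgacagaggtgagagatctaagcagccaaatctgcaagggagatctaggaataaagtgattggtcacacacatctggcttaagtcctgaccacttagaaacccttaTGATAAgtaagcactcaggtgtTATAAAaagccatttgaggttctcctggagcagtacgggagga
Atp4a: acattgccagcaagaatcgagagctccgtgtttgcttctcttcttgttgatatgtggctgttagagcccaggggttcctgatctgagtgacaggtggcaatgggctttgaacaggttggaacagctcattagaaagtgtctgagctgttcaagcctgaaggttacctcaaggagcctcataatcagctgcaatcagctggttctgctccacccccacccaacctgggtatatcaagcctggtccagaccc
Gkn1: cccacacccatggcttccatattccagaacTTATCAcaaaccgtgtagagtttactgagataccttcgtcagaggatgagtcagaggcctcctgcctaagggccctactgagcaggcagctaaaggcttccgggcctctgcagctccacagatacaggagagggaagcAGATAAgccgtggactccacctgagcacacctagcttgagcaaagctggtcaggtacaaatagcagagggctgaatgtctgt
Gkn2: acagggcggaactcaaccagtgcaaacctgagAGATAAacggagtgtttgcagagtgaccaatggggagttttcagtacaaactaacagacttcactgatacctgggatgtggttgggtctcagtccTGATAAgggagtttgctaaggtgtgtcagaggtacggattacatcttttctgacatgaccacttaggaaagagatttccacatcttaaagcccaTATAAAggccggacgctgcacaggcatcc
TATAAA occurred in the windows of Pgc, Chia1 and Gkn2, with its first base 31, 43 and 29 bases before the start. Among all 32851 promoters in the table, 12.4% held this word in the same window. A GATA word occurred once in Chia1 and in 2 places each in Gkn1 and Gkn2, and 26.5% of all promoters held one. The windows of Pgc and Atp4a held none of the GATA words. These are matches of letters and not measured binding sites.

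The gland genes divided the forestomach mice. Ordered by the mean over the 9 genes of each gene's deviation from its own mean, the 19 mice left one wide gap, of 1.90 in a range of 5.79 (32.8%), with 10 mice above it and 9 below. The 10 mice above the gap were mouse 2 of D0, mice 6 to 10 of D1, mice 14 and 15 of D2 and mice 19 and 20 of D3. In all of these, every one of the 9 genes was well above background, as it also was in mouse 17 below the gap. The next widest gap, of 1.25, set mouse 17 of D3 apart from the other 8 mice below. The order is a description, since the same values made it. In bulk RNA, fewer cells of a type and less RNA per cell cannot be told apart.

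**Figure D1:**
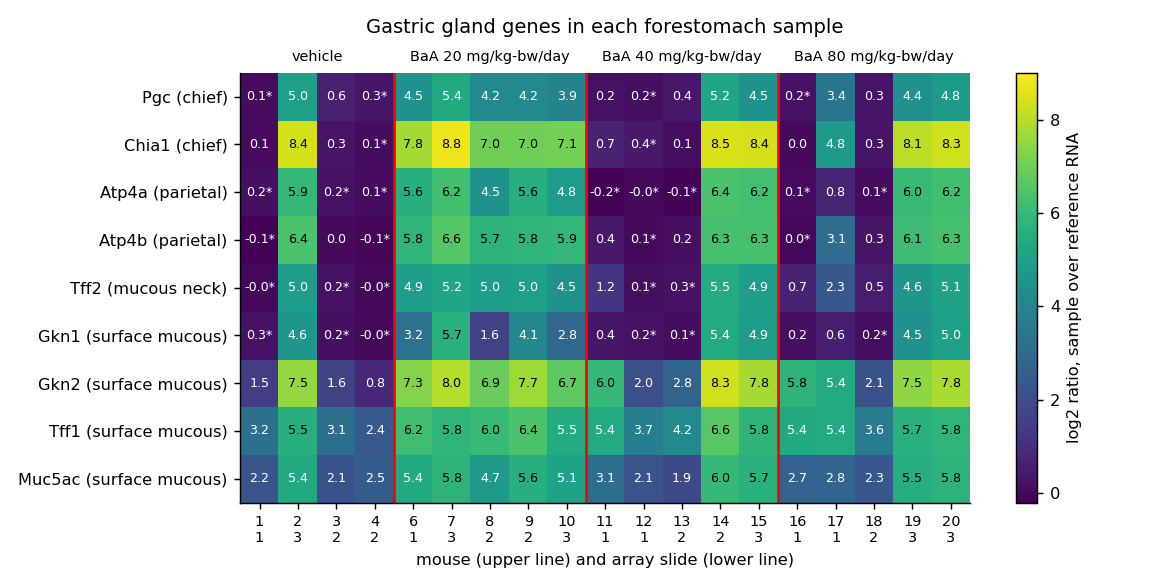
Log2 ratio (colour and printed value) of each gland gene (rows, with its cell type) in each forestomach sample (columns, by mouse number with the array slide below it), grouped by dose. An asterisk marks values not well above background. Mice 2, 6 to 10, 14, 15, 19 and 20 are above background in every row, as is mouse 17, and Gkn2, Tff1 and Muc5ac are above background in all 19 mice.

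The slides went with this order. All 6 mice of slide 3 lay above the gap, against 1 of 6 on slide 1 and 3 of 7 on slide 2. On slide 1 Atp4b ran from -0.11 to 5.83, with a median of 0.24 and the highest value in mouse 6. On slide 2 it ran from -0.08 to 6.34, with a median of 0.29. On slide 3 the same gene lay between 5.88 and 6.56. The part of the slide in the order of the mice was not tested.

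Among the chief cell genes, Pgc encodes pepsinogen C, the precursor of a gastric protease. In D0 its ratio was 0.07, 0.65 and 0.31 in mice 1, 3 and 4 and 5.01 in mouse 2. In D1 it was 4.45, 5.40, 4.17, 4.17 and 3.91 in mice 6 to 10. The vehicle mouse 2 thus lay within the range of D1, and the other 3 vehicle mice lay below all of it. In D2 the values were 0.23, 0.18, 0.40, 5.23 and 4.48 in mice 11 to 15, and in D3 they were 0.24, 3.38, 0.33, 4.40 and 4.80 in mice 16 to 20. The Pgc probe used was well above background in 15 of 19 forestomach samples. A second Pgc probe was so in 19 of 19, and its ratios differed from those of the first by at most 0.87.

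Chia1, the acidic chitinase, had the second largest standard deviation over the forestomach mice of the 32318 probes tested there (3.84). In D0 it stood at 0.08, 0.30 and 0.12 in mice 1, 3 and 4 and at 8.42 in mouse 2. In D1 it was 7.77, 8.78, 7.00, 7.00 and 7.08. Mice 14, 15, 19 and 20 gave 8.46, 8.39, 8.05 and 8.34, so that the treated mice above the gap overlapped the one vehicle mouse there. Mouse 17 was intermediate at 4.75, and the other mice of D2 and D3 lay between 0.02 and 0.70.

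The parietal cell genes encode the catalytic (Atp4a) and the accessory (Atp4b) subunit of the proton pump. Atp4a was 0.16, 0.21 and 0.06 in vehicle mice 1, 3 and 4 and 5.92 in mouse 2, and 5.61, 6.22, 4.49, 5.56 and 4.85 in mice 6 to 10. Below the gap it was well above background in mouse 17 alone, at 0.77. Atp4b was 5.74 to 6.56 in the 10 mice above the gap, and it was 3.1 in mouse 17. In the other 8 mice Atp4b lay between -0.11 and 0.44. For both subunits mouse 17 was the highest mouse below the gap, with Cy5 signals of 794 for Atp4b and 127 for Atp4a, against 9740 to 160000 and 1070 to 24500 above the gap.

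Tff2, a trefoil peptide of mucous neck cells, ranged from 4.52 to 5.45 above the gap. In the mice below it was 2.32 in mouse 17, 1.23 in mouse 11, 0.73 in mouse 16 and 0.52 in mouse 18. It was at most 0.26 in the other 5, none of which was well above background. Its Cy5 signal in mouse 17 was 430, against 6770 to 105000 above the gap.

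Of the surface mucous genes, Tff1, Gkn2 and Muc5ac were measurable in every mouse. Tff1, a trefoil peptide, was well above background in all 19 samples, with 3.19, 3.11 and 2.41 in vehicle mice 1, 3 and 4 and 5.55 in mouse 2. Mice 6 to 10 gave 6.17, 5.82, 6.03, 6.38 and 5.45. Mice 11, 16 and 17 reached 5.43, 5.38 and 5.42, just under the lowest mouse above the gap (5.45). In Cy5 signal these 3 mice were farther from the others, at 36400, 30700 and 39100 against 108000 to 466000 above the gap, and at 415000 in mouse 6 of the same slide. Gkn2, a gastrokine secreted by surface mucous cells, showed the same 3 mice at 5.96, 5.77 and 5.43, while the other 6 mice below the gap lay between 0.84 and 2.78. Above the gap Gkn2 ran from 6.71 to 8.35.

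Gkn1, the other gastrokine, had a mean Cy5 signal of 266 over all arrays. It was 0.37, 0.19 and 0.57 in mice 11, 16 and 17, the only mice below the gap in which it was well above background, against 1.59 to 5.66 above the gap. In Cy5 signal Gkn1 was 100, 106 and 115 in those mice and 276 to 3480 above the gap, and Gkn2 was 8830, 7230 and 4510 against 45800 to 354000. Muc5ac, the main secreted mucin of the gastric surface, was well above background in all 19, with 1.88 to 3.12 below the gap and 4.74 to 5.98 above it. Mice 11, 16 and 17 gave 3.12, 2.70 and 2.79 for Muc5ac. In mice 11 and 16 the ratios of Atp4a, Atp4b, Pgc and Chia1 were at most 0.70.

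Repeated spots gave the spread between spots of one gene on one array, which leaves out differences between labellings, hybridisations and slides. Gkn2 had 10 spots per array, whose standard deviation on one array was 0.05 to 0.28 in forestomach (median 0.13). The standard deviation of Gkn2 over the 19 mice was 2.67. Among the 32318 probes, the gland genes ranked for this spread from Chia1 (rank 2) and Atp4b (rank 15) to Muc5ac (rank 154) and Tff1 (rank 285).

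The reference channel moved with the sample channel. On slide 2, the Cy5 signal of Pgc was 84.0 in mouse 4 and 231000 in mouse 14, and its Cy3 signal in the same mice was 52.0 and 7100, although the reference RNA was the same. For Tff1 on slide 2, Cy5 was 422 in mouse 4 and 466000 in mouse 9, with Cy3 of 65.0 and 4610. Chia1 and Gkn1 showed this less, with Cy3 of 57.0 and 479 for Chia1 and 46.5 and 74.0 for Gkn1 between the dimmest and the brightest mouse of the slide. The slides also differed. For Pgc, Cy3 was 14000 at a Cy5 of 92200 in mouse 2 of slide 3. It was 2930 at a Cy5 of 90200 in mouse 6 of slide 1. For Tff1, Cy3 was 11500 at 111000 in mouse 2, and 3190 at 236000 in mouse 8 of slide 2. The part of the slide in these ratios was not tested. The log2 ratio of Pgc covered 5.34 over the 19 mice, whereas its Cy5 signal alone, quantile normalised, covered 12.0. For Tff1 the corresponding ranges were 4.20 and 9.89, and for Gkn1 they were 5.67 and 5.73. No member was saturated on any array (0 of 58). Every measured gland gene covered a smaller range in the ratio than in Cy5, though for Gkn1 the ranges were nearly equal. The size of this difference did not simply follow the brightness of the gene. Muc5ac, with a mean Cy5 signal of 4000 over all arrays, covered 4.1 in the ratio against 8.21 in Cy5. Chia1, with a mean of 12000, covered 8.76 against 10.8. The cause was not tested.

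**Figure D2:**
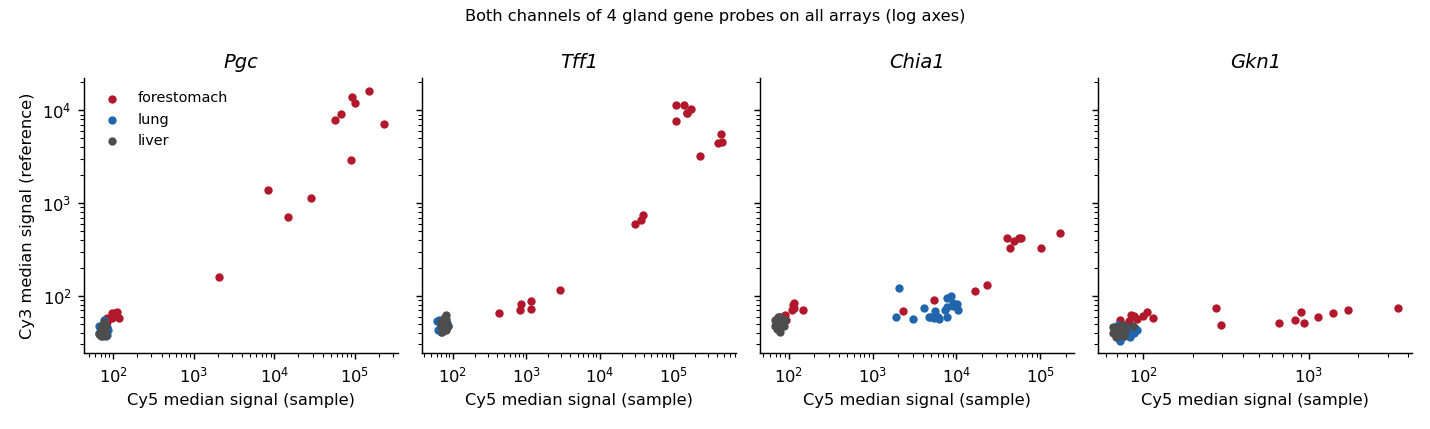
Cy3 median signal (reference RNA, vertical) against Cy5 median signal (sample RNA, horizontal) on log axes for 4 gland genes, 1 point per array, coloured by tissue. Cy3 climbs with Cy5 for Pgc and Tff1 in forestomach, less so for Chia1, and for Gkn1 it stays between 46.5 and 74.0 in forestomach.

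Lung and liver supplied the background. Gkn2 lay between -0.11 and 0.09 in the 20 lungs and between -0.15 and 0.04 in the 19 livers, and it was above background in none of them. Gkn1, Tff1 and Atp4a were likewise above background in 0 of 39 lung and liver samples, as was the Pgc probe used. The second Pgc probe passed the flag in 1 lung and 5 livers, with ratios up to 0.32 and 0.75. Atp4b passed it in one lung, that of mouse 14, at 0.44.

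Chia1 and Tff2 were exceptions in lung. Chia1 was well above background in all 20 lungs, from 5.83 to 7.66 with a median of 6.58, and in 0 of 19 livers. Lung Chia1 was 6.48 ± 0.49 in D0, 6.87 ± 0.60 in D1, 6.49 ± 0.35 in D2 and 6.62 ± 0.45 in D3 (SD, n = 5 each), so the groups overlapped. Tff2 was above background in 19 of 20 lungs, from 0.63 to 2.82, the exception being mouse 14 at -0.03. In liver Tff2 was above background in 2 of 19 samples, with a maximum of 0.80. Muc5ac passed in 13 lungs, at up to 0.73, and in 6 livers, at up to 1.01. Slides were numbered within each tissue, and these 6 livers were the arrays of liver slide 1. No liver on another slide passed for Muc5ac, and the part of the slide was not tested.

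**Figure D3:**
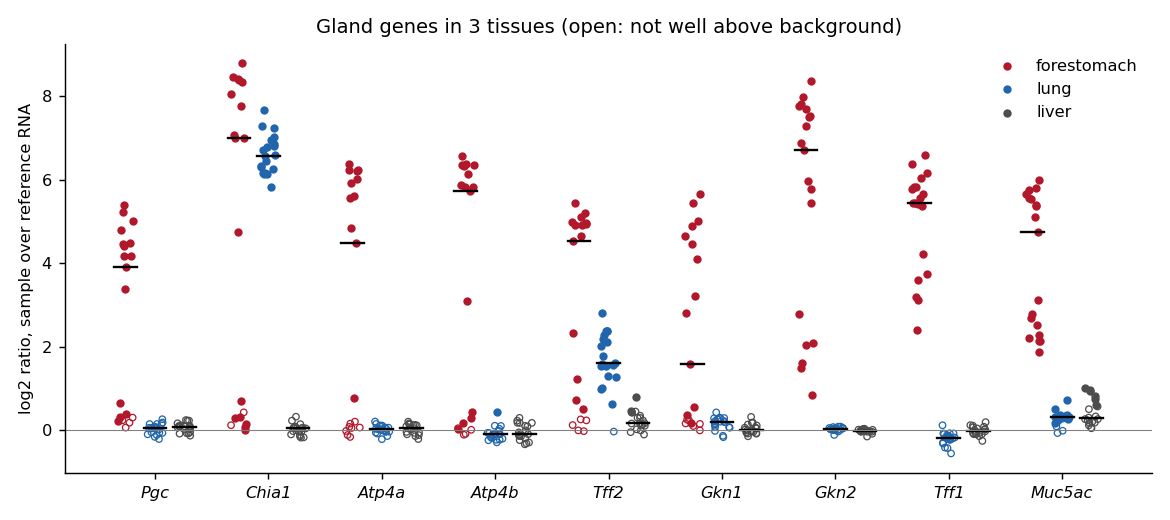
Log2 ratio (vertical) of each gland gene (horizontal) in forestomach, lung and liver, 1 point per sample and a bar at the median, with open points not well above background. Forestomach values fall into a high and a low set for Pgc, Chia1, Atp4a, Atp4b and Gkn2, and lung is high for Chia1 (5.83 to 7.66) and raised for Tff2.

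Forestomach was set against the other tissues over all dose groups in one limma model of the 58 arrays. Against lung, 8 of the 9 measured genes were called higher in forestomach and Chia1 was called lower, while 15% of the 34267 probes tested were called higher. Against liver, 9 of 9 were called higher, and 20.9% of 33033 probes were. Of the 9 genes, 6 entered the lung comparison and 8 the liver comparison only because they were above background in forestomach, so these counts are a description, and no p is given for those genes. Their differences from lung were 5.16 for Tff1 (SE 0.18), 5.29 for Gkn2 (SE 0.42), 3.42 for Atp4b (SE 0.49), 2.99 for Atp4a (SE 0.49), 2.63 for Pgc (SE 0.36) and 2.09 for Gkn1 (SE 0.40). Muc5ac, which passed the filter in lung as well, was higher in forestomach by 3.70 (SE 0.28, adjusted p = 2.05e-17 with limma).

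For genes that were dark in the other tissue the difference is a lower bound, set on normalised Cy5 signal against the dimmest signal still called above background on each array. On that scale Tff1 was at least 478-fold higher than in lung and at least 461-fold higher than in liver. Gkn2 was at least 181-fold and 179-fold higher, Pgc at least 54.3-fold and 53.4-fold, and Atp4a at least 12.9-fold and 12.6-fold. Atp4b was at least 45.1-fold higher than in liver, and Gkn1 at least 4.32-fold higher than in lung. These means include the forestomach samples in which the gene was itself dark.

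Chia1 was lower in forestomach than in lung by 2.20 on the log2 scale (difference -2.20, SE 0.64, adjusted p = 0.00196), a mean over forestomach mice from 0.02 to 8.78. Its median was 8.19 in the 10 mice above the gap and 0.295 in the 9 below, against 6.58 in lung. With Cy5 alone the difference from lung was -0.89 and the call was lost (adjusted p = 0.344). Tff2 exceeded lung by 1.15 (SE 0.39, adjusted p = 0.00668). That value turned to -0.62 with Agilent's processed signals (adjusted p = 0.194) and to -0.53 among vehicle mice alone (adjusted p = 0.602), and it was 0.33 without slide 3 (adjusted p = 0.309). Among vehicle mice alone, 4 genes were called against lung (Tff1, Gkn2 and Muc5ac higher, Chia1 lower) and 3 against liver (Tff1, Gkn2 and Muc5ac). Tff1 and Gkn2 passed both filters through forestomach alone, so these counts too are a description.

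The dose groups differed in how many mice lay above the gap, a count that was not tested. Mice below it held gland RNA as well, since Tff1, Gkn2 and Muc5ac were well above background in every mouse. Mice above the gap numbered 1 of 4 in D0, 5 of 5 in D1, 2 of 5 in D2 and 2 of 5 in D3. The order did not follow the dose. None of the 9 genes was called in any dose comparison with limma and Benjamini-Hochberg adjustment over 32318 probes.

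For D1 against D0, 0% of probes were called and 1568 had an unadjusted p under 0.05. All 9 differences were positive, from 2.21 (Gkn1) to 5.29 (Chia1) with a median of 3.63, against -0.03 over all probes tested. Of the 9, 8 had an unadjusted p under 0.05, and the adjusted p was 0.931 for each. The means ± SD were 5.97 ± 0.34 in D1 (n = 5) and 1.55 ± 3.22 in D0 (n = 4) for Atp4b, and 7.31 ± 0.54 and 2.87 ± 3.13 for Gkn2. For both genes the D1 spread was narrower than that of D0, where mouse 2 alone was high. Without mouse 2, the differences from D0 ran from 3.02 (Muc5ac) to 7.36 (Chia1), and 0 of the 9 were called (adjusted p from 0.428 to 0.454).

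Within slides, the D1 difference depended on which vehicle mouse was there. For Atp4b it was 5.93 on slide 1, 5.81 on slide 2 and -0.16 on slide 3, where the vehicle mouse was mouse 2. Chia1 gave 7.69, 6.79 and -0.50 on the same slides, and Gkn2 gave 5.79, 6.07 and -0.18. Each slide held 1 or 2 mice of a group, so these are values without a test. With slide as a block, the D1 differences ran from 1.74 to 4.57, with an adjusted p of 0.659 to 0.712.

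For D2 against D0, 0.00928% of probes were called and the 9 genes differed by 0.60 (Pgc) to 2.51 (Gkn2), with a median of 1.11 and an adjusted p of 1 for each. For D3, 0.0248% of probes were called and the genes differed by 0.74 (Muc5ac) to 2.85 (Gkn2), with a median of 1.37 and adjusted p of 0.85 to 0.999. Tff1 was the one gene with an unadjusted p under 0.05 in either (0.0192 in D2 and 0.0181 in D3). In the dose trend, 0.0309% of probes were called, the 9 slopes ran from -0.0048 to 0.0173 per mg/kg-bw/day, and the adjusted p was 1 for each. Across D2 and D3 the groups of every gland gene overlapped D0.

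**Figure D4:**
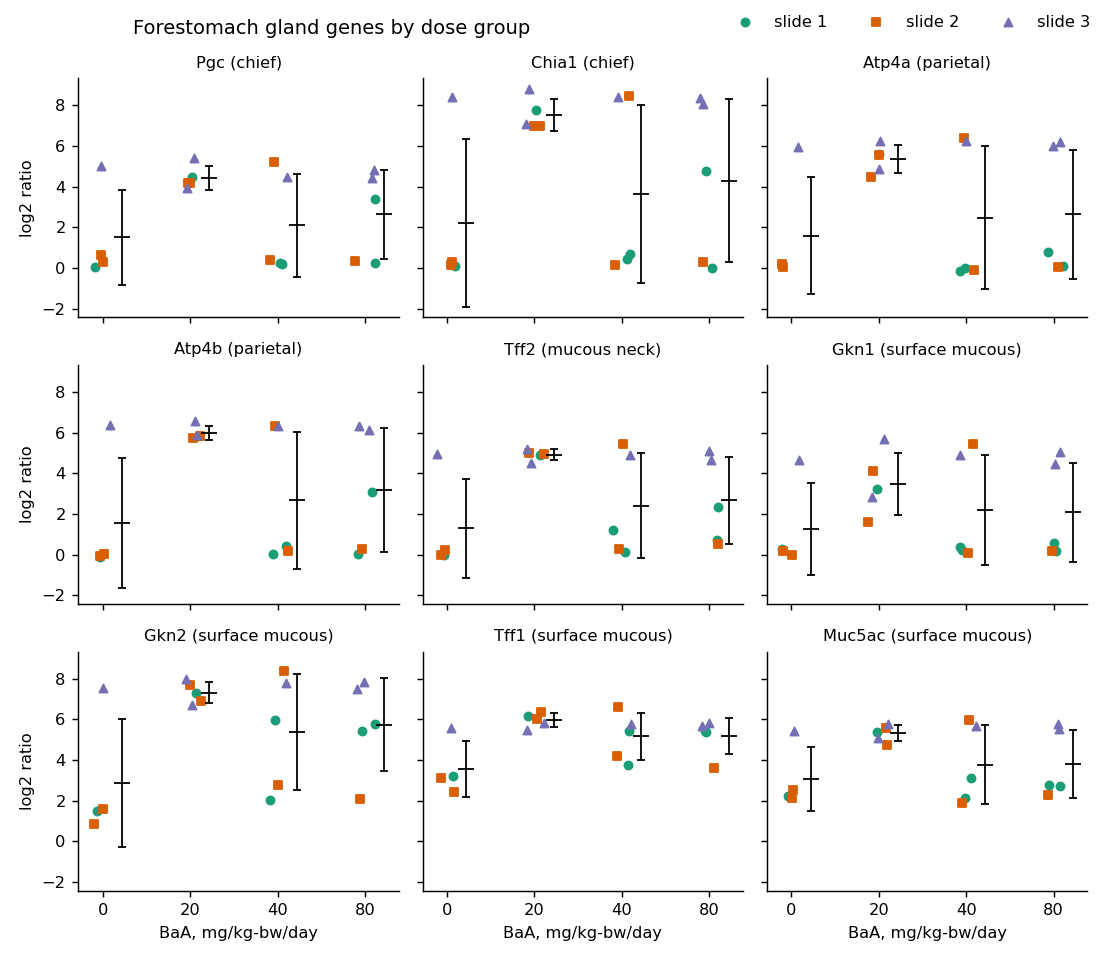
Log2 ratio (vertical) of each gland gene in forestomach by BaA dose (horizontal), 1 point per mouse with the array slide as symbol, and mean ± SD beside the points (n = 4 at 0 and n = 5 elsewhere). D1 (20 mg/kg-bw/day) is the one group in which all mice are high, and the slide 3 triangles are high at every dose.

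Since the mice fell into separate sets, correlations were taken within the 10 mice above the gap and within the 9 below, and no pooled r is given for a pair of gland genes. In all, 324 relations were computed, namely 36 pairs of gland genes and 126 pairs of a gland gene with the mean of a marker list in each set, and p-values were adjusted over all of them (permutation test with 100000 permutations for 10 mice, exact permutation test for 9 mice, two-sided). Among the 10 mice, 34 of 36 pairs were positive, the median r was 0.744, and 21 pairs passed an adjusted p of 0.05, 15 of them also by Spearman's rho. The permutations took mice as exchangeable over slides and dose groups, though 6 of the 10 were on slide 3 and 5 in D1. They also took both sets of mice as given, though the same gene values had made them. The p-values do not account for that choice. The share of pairs passing among other genes was not computed, so these counts do not show a trait particular to the gland genes.

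Among these 10 mice the parietal, chief and surface genes varied together. Chia1 and Atp4b gave r = 0.944 and rho = 0.952 (permutation test, p = 4e-05 and 0.00017, adjusted p = 0.00144 and 0.00424, n = 10), and r was 0.914 without the 2 mice farthest from the median. Atp4a and Gkn1 gave r = 0.958 and rho = 0.915 (permutation test, p = 3e-05 and 0.00059, adjusted p = 0.00144 and 0.00869, n = 10), and r was 0.879 without 2 mice. Gkn2 and Muc5ac gave r = 0.934 and rho = 0.976 (permutation test, p = 7e-05 and 3e-05, adjusted p = 0.00174 and 0.00162, n = 10), with 0.957 without 2 mice. These pairs join chief with parietal, parietal with surface, and surface with surface mucous genes. With slide means subtracted first, the median r over the 36 pairs was 0.887. In this set slide 1 held mouse 6 alone, so its own values were subtracted. That r rested on the mice of slides 2 and 3.

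Tff1 stood apart in that set. Its median r with the other 8 genes was 0.159, from -0.186 with Atp4b to 0.687 with Tff2. With slide means subtracted, the median for Tff1 was 0.87, and with Cy5 alone it was 0.772. The values of r for Tff1 were thus low in the ratios over all slides and higher once slide means were subtracted. After that subtraction they too rested on the mice of slides 2 and 3.

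Among the 9 mice below the gap, all 36 pairs had a positive r, the median was 0.683, and 9 pairs passed an adjusted p of 0.05. Of those, 4 also passed by Spearman's rho. Gkn2 and Tff1 gave r = 0.978 and rho = 0.95 (exact permutation test, p = 4.96e-05 and 0.000353, adjusted p = 0.00161 and 0.00571, n = 9), and r was 0.973 without the 2 mice farthest from the median. Gkn2 and Tff2 gave r = 0.792 and rho = 0.917 (exact permutation test, p = 0.00614 and 0.00131, adjusted p = 0.0291 and 0.0129, n = 9). Chia1 and Atp4b gave r = 0.993, which was 0.415 without 2 mice, one of them mouse 17, so that Pearson's r rested on them. Spearman's rho for the same pair was 0.867 (exact permutation test, p = 0.00451, adjusted p = 0.0298, n = 9). Atp4a was above background in 1 of these 9 mice, Gkn1 in 3, Tff2 in 4, and Atp4b and Pgc in 5 each. Correlations of these genes there, rho included, are partly or largely between values at the floor, which give no order. Without mouse 17 the median r over the pairs was 0.406.

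**Figure D5:**
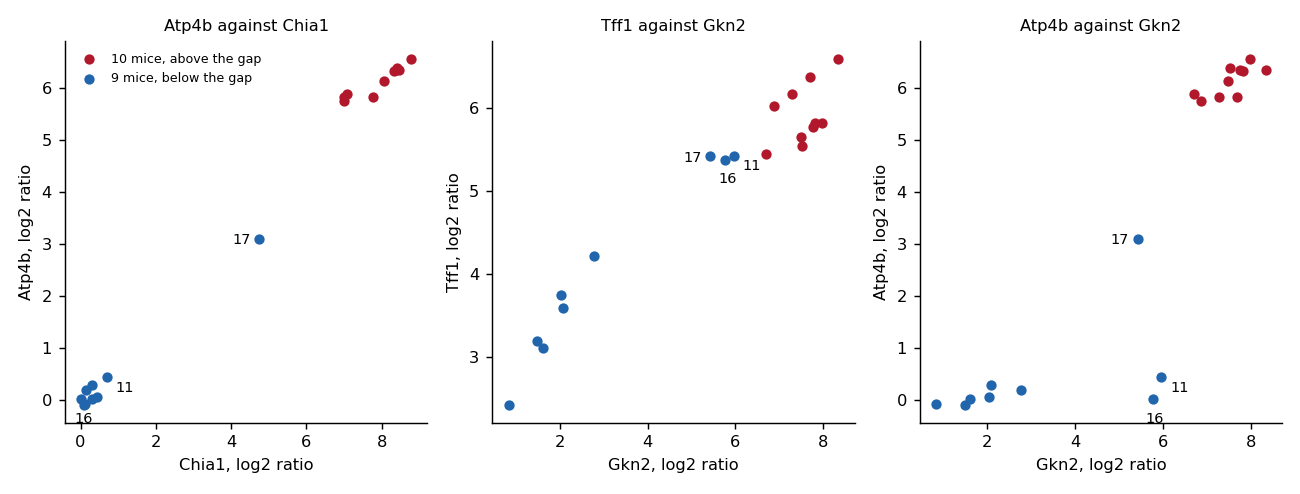
Log2 ratios of pairs of gland genes, 1 point per forestomach mouse, coloured by its side of the gap, with mice 11, 16 and 17 labelled. Atp4b and Chia1 lie along one line with mouse 17 between the sets, and mice 11 and 16 lie at 5.96 and 5.77 for Gkn2 with Atp4b at 0.44 and 0.01.

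Other genes of the same cell types varied to different degrees. For chief cells, 3 of 4 further markers were tested in forestomach. Cblif, gastric intrinsic factor, ran from -0.29 to 8.35, Pga5, another pepsinogen, from -0.14 to 4.28, and Bhlha15, a transcription factor of secretory cells, from -2.47 to 2.88. Lipf, gastric lipase, ran from -0.29 to 0.07 and was above background in 2 samples, too few to be tested. For parietal cells 7 of 7 were tested, among them the potassium channel genes Kcne2 (-0.19 to 6.40) and Kcnq1 (0.34 to 5.76), Esrrg (-0.22 to 5.61) and Clic6 (-0.06 to 4.74), which had the widest spread. The others were narrower, with Slc9a4 from -0.47 to 3.08, Aqp4 from 0.02 to 2.70 and Slc26a7 from 0.05 to 1.07. Kcne2, Kcnq1 and Clic6 were above background in all 20 lungs and were called lower in forestomach than in lung. None of these chief or parietal markers was called in any dose comparison (0 of 10). In the 10 mice above the gap, the mean of the chief list had a median r of 0.873 with the gland genes and that of the parietal list 0.881, and 7 of 9 relations passed an adjusted p of 0.05 for each, 4 and 7 of them also by Spearman's rho.

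The further surface mucous list held Ctse (-2.08 to 6.87), Mucl3 (-0.14 to 6.58), Psca (0.06 to 6.21) and Capn8 (-0.09 to 1.63), and the neck and gland mucous list held Gkn3 (0.20 to 5.56) and A4gnt (-0.23 to 1.80). Psca and Gkn3 were above background in all 19 forestomach samples. Of the gastric endocrine markers, Sst (somatostatin) ran from -0.10 to 4.71, Ghrl (ghrelin) from 0.36 to 3.07, and the granins Chgb and Chga from 1.73 to 4.82 and from 3.33 to 5.42. Of the transcription factors of the gastric epithelium, those with the widest spread were Spdef from -0.48 to 5.53, Foxa3 from -0.28 to 4.33, Gata6 from -2.59 to 1.68 and Gata4 from -1.11 to 2.82. Foxq1 ran from 1.63 to 4.94, and Nkx6-3, from -0.25 to 0.33, was above background in 2 of 19 samples and was not tested. Keratins of columnar epithelium covered Krt20 from -3.27 to 3.53, Krt18 from -5.20 to 1.60, Krt19 from -2.78 to 4.77 and Krt8 from -4.27 to 2.67. Not one gene of these lists was called at any dose (0 of 22 tested). In the 10 mice above the gap the median r with the gland genes was 0.809 for the surface list, 0.47 for the neck list, 0.652 for the endocrine list, 0.846 for the transcription factors and 0.776 for the columnar keratins with Epcam. Of 9 relations each, 7, 2, 3, 8 and 6 passed an adjusted p of 0.05, and 4, 0, 3, 5 and 4 of these also by Spearman's rho. Over all lists, 52 of 126 relations passed in this set of mice.

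The label of the tissue was checked against squamous markers. All 12 squamous genes were tested and all 12 were called higher in forestomach than in lung and in liver, beside 15% and 20.9% of all probes. Against lung 8 of the 12, and against liver 11, passed the filter through forestomach alone, so the count is a description. In all, 11 were above background in all 19 forestomach samples. Krt6a, a keratin of activated squamous epithelium, was above background in 17, from 0.07 to 3.43. Ivl (0.42 to 3.29), Dsc3 (0.97 to 3.57) and Dsg3 (2.13 to 4.52) came next in spread. Smooth muscle genes varied less, with Tagln from 3.55 to 5.18, Des from 4.24 to 5.75, Acta2 from 2.40 to 3.79 and Actg2 from 5.24 to 6.42. Among the 10 mice above the gap the gland genes had a median r of -0.56 with the mean of the squamous genes, and 2 of 9 relations passed an adjusted p of 0.05, both negative (Atp4b, r = -0.784, permutation test, p = 0.00665, adjusted p = 0.0301, n = 10, and Gkn1, r = -0.746, permutation test, p = 0.013, adjusted p = 0.0452, n = 10). Neither passed by Spearman's rho (adjusted p = 0.101 and 0.182). For the smooth muscle list the median r was -0.34 and 0 of 9 passed.

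Markers of neighbouring organs were measured beside the gland genes. Of 6 small intestine markers, Sis and Alpi were above background in 0 of 19 samples, while Vil1 ran from -0.22 to 3.93, Fabp2 from -0.05 to 2.53, Apoa4 from -0.18 to 1.60 and Lct from 0.35 to 1.39. In the 10 mice above the gap the small intestine list had a median r of 0.4 with the gland genes. There, 2 of 9 relations passed an adjusted p of 0.05, 1 of them also by Spearman's rho. Of 6 acinar pancreas markers, Pnlip was above background in 0 samples, Cela2a in 1 and Cpa1 in 3, while Cela1 ran from -1.30 to 1.84, Prss2 from -0.38 to 3.13 and Ctrb1 from -0.26 to 0.57. The mean deviation of the tested pancreas markers was -0.86 to 1.03 in D0, -0.42 to 1.16 in D1, -0.73 to 1.19 in D2 and -0.66 to 0.89 in D3. In the 10 mice above the gap its median r with the gland genes was 0.825, and 7 of 9 relations passed an adjusted p of 0.05, 4 of them also by Spearman's rho. Its part in the gland values was not tested. Fat markers also ranged widely, with Cfd from -0.07 to 7.52, Adipoq from -0.24 to 5.45, Plin1 from -0.20 to 3.72 and Fabp4 from 5.57 to 7.24. The mean deviation of the tested fat markers had a median of 2.17 in D0, -1.39 in D1, -0.32 in D2 and -0.84 in D3. The median difference of these 4 genes from D0 was -2.24 in D1, opposite in sign to that of the gland genes (3.63), and none of them was called. Within each set of mice, 0 of 9 relations of a gland gene to the fat list passed an adjusted p of 0.05. The part of fat in the gland values was not tested.

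Liver and lung markers behaved differently from each other. Apoa1 ran from 0.01 to 5.30 in forestomach, Ttr from -0.15 to 5.38, Serpina1a from 0.62 to 5.01 and Alb from 0.10 to 3.90. In the 10 mice above the gap, 1 of 9 relations of gland genes to the liver list passed an adjusted p of 0.05, and 0 passed by Spearman's rho. Of the lung markers, Sftpc, Sftpb and Ager were above background in 2, 1 and 2 forestomach samples. Scgb1a1, a secretory protein of airway club cells, was above background in all 19, from 4.60 to 5.79.

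The genes most alike to each cell type over the 19 mice were taken by Pearson's r as a likeness, without a test, since the mice fall into separate sets. For Pgc they were Clps (0.996), Pla2g1b (0.995), Cblif (0.985) and Ghrl (0.983) out of 15080 genes. Clps encodes colipase and Pla2g1b a secreted phospholipase, both known from digestive secretions. For the mean of Atp4a and Atp4b they were Pdia2 (0.999), Clic6 (0.997), Cblif (0.996) and Agr2 (0.993), of which Pdia2 and Agr2 are protein disulfide isomerases of secretory cells. For Tff2 they were Bpifb1 (0.997), Pdia2 (0.99), Vsig2 (0.99) and Psca (0.989). For the mean of Muc5ac, Gkn1, Gkn2 and Tff1 they were Mucl3 (0.99), Psca (0.988), Anxa10 (0.985) and 2210407C18Rik (0.983). Clps ranged from -0.16 to 7.49 and Anxa10 from -0.05 to 9.48 over the same mice.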

How the data were processed

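RNA of 58 samples was hybridised on two-colour Agilent arrays, with the sample in Cy5, a universal mouse reference RNA in Cy3 and no dye swap, so any dye bias of a probe enters every group alike. Spot intensities were, per the file headers, extracted with Feature Extraction 10.7.3.1. The authors took median signals without background correction, applied LOWESS and deposited log2 ratios, which are the main values here. Set against ratios computed with loess in limma 3.58.1 (R 4.3.3), they correlated with r of 0.995 to 0.998, with a slope of 0.989 to 0.996 and column medians of -0.044 to -0.022, which fixes their scale and direction. Accessions were matched to a RefSeq table (GRCm38.p6). The array grid was made on mm9 and no coordinates were taken from it, and the promoter positions are those of RefSeq on GRCm38.p6. A gene's brightest probe over all arrays was used.

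Probes well above background on at least 4 arrays of the tissue (of either tissue, between tissues) were tested with limma. The study used MAANOVA, and limma took its place. A probe was called where its p, adjusted by Benjamini-Hochberg, did not exceed 0.05 and its fold reached 1.5 (the dose trend, adjusted p alone). Dose fits used the 19 forestomach arrays with 4 groups, and tissue fits used 12 groups on all arrays. The scripts were tested on simulated data. Sequences came from RefSeq. The number of arrays limits the precision.

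The members and lists were chosen with earlier results of these data known. All members were named, with up to 4 genes per list (largest SD over forestomach) and the 4 genes most alike per cell type. Alternatives tried were other normalisations, background correction, Cy5 alone, Agilent processed signals, the mean over probes, no filter, no minimum fold, rank of dose, slide and mouse blocks, vehicle mice alone, and leaving out each mouse, with slide 3 left out as an alternative chosen after seeing the data. Tissues of one mouse number came from one animal, so mouse pairs the tissue comparison, where the correlation within mice was 0.0367.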

Additional observations from a re-analysis of the deposited data

Results flagged for a closer look

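Within dose groups, a sample was singled out where its gap to the nearest other sample was a large share of the group's range (Dixon's criterion at the 95% level). Of 54 gene and group combinations tested, 11 were singled out (20.4%), where chance gives about 1 in 20.

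In D0 forestomach, mouse 2 was singled out for 8 of the 9 genes, which are not independent of each other. The share of the range taken by its gap was 0.974 for Atp4a (5.92 against 0.21 in the next mouse), 0.98 for Atp4b (6.38 against 0.02), 0.974 for Chia1 (8.42 against 0.30), 0.945 for Gkn1 (4.64 against 0.26), 0.885 for Gkn2 (7.53 against 1.61), 0.878 for Muc5ac (5.40 against 2.53), 0.883 for Pgc (5.01 against 0.65) and 0.948 for Tff2 (4.95 against 0.24). Mouse 2 was the only D0 forestomach array on slide 3, where 38.4 to 42.1% of spots were above background, and its part in these values was not tested.

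Atp4b in D1 forestomach was highest in mouse 7 (0.834, with 6.56 against 5.88). Tff1 in D3 forestomach was lowest in mouse 18 (0.803, with 3.59 against 5.38). Muc5ac in D2 liver was highest in mouse 15 (0.79, with 0.82 against 0.27). That array was the only D2 liver on liver slide 1, and the part of the slide in this value was not tested.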

How the results depend on the processing

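No gland gene was called in a dose comparison or the trend under any alternative (0 of 9 each), leaving out each mouse included. Over all probes, D1, D2, D3 and the trend gave 0, 3, 8 and 10 calls, against 0, 5, 47 and 75 with Cy5 alone, 0, 1, 0 and 0 with median centring, 0, 0, 5 and 2 with processed signals, 1, 1, 5 and 0 without slide 3, and 0, 6, 10 and 10 with slide as a block. The mean over probes gave 5 in D2. Leaving out single mice gave 0 to 5 in D2, 6 to 10 in D3 and 0 to 9 in the trend. The causes were not tested.

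Against lung and liver, 9 and 9 genes were called (9 to 9 when single mice were left out), 4 and 3 among vehicle mice alone (fewer samples). These counts are a description, since 6 genes against lung and 8 against liver passed the filter through forestomach alone. With mouse as a replicate block, the pairing changed no call (9 and 9). Tff2 against lung turned from 1.15 to -0.62 with processed signals and to -0.53 among vehicle mice. In D2, Atp4a turned from 0.88 to -0.10 and -0.06 without mice 14 and 15 (-0.10 to 2.32 over single mice left out), and Pgc from 0.60 to -0.18 without mouse 14 (-0.18 to 1.77), all uncalled.

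The median r of 0.744 above the gap became 0.92 with median centring, 0.913 with Cy5 alone, 0.553 with processed signals and 0.887 with slide means subtracted, and 0.687 to 0.817 when single mice were left out. Below the gap, 0.683 became 0.406 to 0.757 when single mice were left out, the lowest without mouse 17. Values near 0 are at the background of the arrays and give no order.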
